A study of Mus musculus with 8 samples.

Results

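The genes Smo, Tmem267, Dpp9, Sos2, Dlgap2 and Aadac were examined because peaks of a PEG3 antibody and of an H3K9me3 antibody overlapped in or beside them in at least 1 genotype. Every row of the peak tables that overlapped the gene body or 10 kb on either side was taken, which gave 47 of the 581 listed peaks. The windows of 15 of 21900 protein-coding genes held such an overlap, and these 6 are among them. The members were thus chosen by the lists, so the overlap is a description and was not tested.

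Chromatin immunoprecipitation with sequencing (ChIP-seq), in which an antibody pulls down DNA fragments with the protein or histone mark it binds, was carried out on mouse embryonic fibroblasts. These are connective-tissue cells grown from embryos, here of strain C57BL/6 taken 14.5 days post coitum. Genotypes were wild type and Peg3 knockout, no treatment was named, and the labels do not describe the knockout allele. Each of the 2 antibodies gave 1 library per genotype, and the 2 antibodies of a genotype were called against the same input DNA, so the study has 1 sample per group and no difference can be tested against replicate error. The 4 ChIP libraries kept between 16986250 and 27289192 tags, the PEG3 libraries being shallower than the H3K9me3 libraries. With PEG3 the wild-type list had 152 peaks and the knockout list 163, and with H3K9me3 they had 173 and 93. In the body of the targeted gene Peg3 the PEG3 antibody listed 13 wild-type and 19 knockout peaks, and peak lists do not measure the protein, so they do not check the knockout. Peak lists hold no expression and cannot check the cells, and 0 of 9 fibroblast marker genes and 0 of 3 neuronal marker genes had a peak within 10 kb in any library.

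PEG3 is a DNA-binding zinc finger protein made from the paternal copy of an imprinted gene. H3K9me3, histone H3 trimethylated at lysine 9, is laid down by enzymes such as SETDB1 and SUV39H1, is bound by heterochromatin protein 1, and marks silent chromatin, much of it in repeated DNA. Input DNA is sequenced without an antibody and shows how many fragments a site gives by itself.

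Peaks of the 4 libraries that overlapped by at least 1 bp were joined into a site, and the sites of each gene were numbered by position. A height is the number of fragments over the summit, also given per 1000000 kept tags of its library (FPM). Input is the number of input fragments that the peak caller expected at the summit, recovered from the authors' fold enrichment. Intervals are 95% intervals of the counts (exact) and cover counting error only. For a height scaled to the depth of another library, they leave out the counting error of that other library. A site that a library does not list has no height there. Folds are the authors' values for each peak.

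The 47 peaks formed 21 sites, of which 12 lay in Tmem267, 3 in Smo, 2 in Dlgap2, 2 near Aadac and 1 each in Dpp9 and Sos2. All 4 libraries listed 3 sites (Smo site 2, Tmem267 site 2 and Dpp9 site 1). A further 4 sites, in Tmem267, Sos2 and Dlgap2 and near Aadac, were listed in every library but that of the knockout with the PEG3 antibody. With the H3K9me3 antibody alone, 8 sites were listed in both genotypes, 4 in wild type and 1 in knockout. The remaining site, Smo site 3, was listed by PEG3 in knockout and H3K9me3 in wild type. No site was listed by the PEG3 antibody alone.

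**Figure D1:**
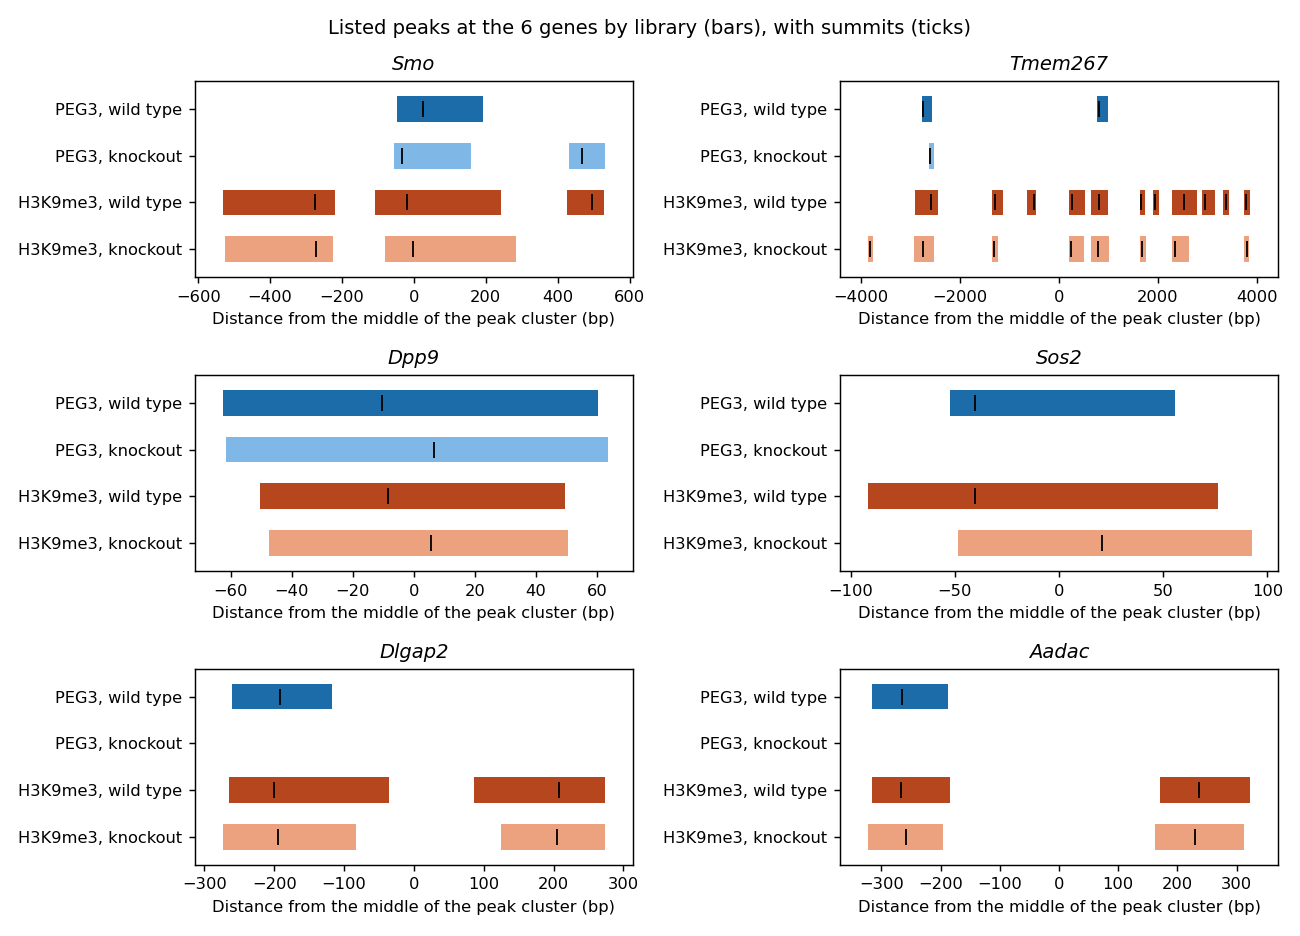
Each panel shows 1 gene, with the listed peaks of the 4 libraries as bars and their summits as ticks against the distance in bp from the middle of the gene's peak cluster; the horizontal scale differs between panels. PEG3 peaks lie on H3K9me3 peaks, and the knockout PEG3 rows of Sos2, Dlgap2 and Aadac are empty.

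All 7 wild-type PEG3 peaks of these windows overlapped a wild-type H3K9me3 peak, against 15.1% of the whole wild-type PEG3 list, and 3 of 4 knockout ones overlapped a knockout H3K9me3 peak, against 12.9% of the knockout list. These counts follow from the choice of genes. Between the genotypes, 3 of the 7 PEG3 peaks of wild type met one of knockout (40.8% of the whole list) and 3 of the 4 of knockout met one of wild type (39.9%), and 15 of 20 wild-type H3K9me3 peaks overlapped a knockout H3K9me3 peak (38.2% of the whole list). In the other direction it was 15 of 16 knockout H3K9me3 peaks, against 72.0% of that list.

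Smo encodes Smoothened, the membrane protein that carries the Hedgehog signal into the cell. The gene lies on chromosome 6 at 29735497 to 29761366 (mm10, as all positions here). Its 3 sites fell within 1062 bp inside the gene, 12383 to 13444 bp from its annotated start, and the pseudogene Gm13717 lay 1231 bp from them. Site 1 (29747880 to 29748189) was listed with the H3K9me3 antibody alone, with 78 fragments in wild type (2.97 FPM) and 51 in knockout (1.87 FPM). Both inputs gave 8 fragments there. The depth-normalised knockout over wild-type ratio was 0.630 (interval 0.434 to 0.908), so the interval lay below 1, and the 2 summits were 2 bp apart.

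Smo site 2 (29748303 to 29748694) was listed in all 4 libraries. H3K9me3 gave 76 fragments in wild type (2.89 FPM) and 56 in knockout (2.05 FPM). PEG3 gave 38 in wild type (1.78 FPM) and 29 in knockout (1.71 FPM). The PEG3 heights thus hardly differed, with a ratio of 0.961 (0.572 to 1.60), while the H3K9me3 ratio was 0.710 (0.494 to 1.02), an interval that just reached 1. The input at the PEG3 summits was 16 fragments in wild type and 10 in knockout, at positions 59 bp apart, and the PEG3 fold was 2.59 and 4.04, so the folds stood further apart than the heights.

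Smo site 3 (29748836 to 29748941) was listed as a wild-type H3K9me3 peak of 104 bp with 37 fragments (1.41 FPM, 8.78-fold) and a knockout PEG3 peak of 99 bp with 25 fragments (1.47 FPM, 8.95-fold). Input was close to 3 fragments in either genotype. With that input, 13 fragments would have been needed to pass the weakest score listed in the wild-type PEG3 library, where the knockout height scaled to its depth was 31.5 (20.4 to 46.5). In the knockout H3K9me3 library 16 would have been needed, and the wild-type height scaled to its depth was 38.4 (27.0 to 52.9). The peak caller also lists no peak shorter than its fragment length, 104 bp for wild-type PEG3 and 98 bp for knockout H3K9me3, and the listed peaks were 99 bp (PEG3) and 104 bp (H3K9me3) long. The length that this site would take in a library that did not list it is unknown, and the part of the length limit was not tested.

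Sos2 encodes a guanine nucleotide exchange factor that activates Ras downstream of receptor tyrosine kinases. It lies on chromosome 12 at 69583761 to 69681852, and its single site (69654099 to 69654282) lay inside the gene, 27570 to 27753 bp from the annotated start. H3K9me3 gave 66 fragments in wild type (2.51 FPM) and 57 in knockout (2.09 FPM), a ratio of 0.832 (0.573 to 1.2), with summits 61 bp apart. PEG3 gave 31 fragments in wild type (1.45 FPM, 3.26-fold) and was not listed in knockout. The wild-type summits of the 2 antibodies were at the same base. In knockout 20 PEG3 fragments would have been needed to pass the weakest score listed there, at the input of 8 fragments. The wild-type height scaled to knockout depth was 24.6 (16.7 to 34.9). The number needed lay inside this interval, and the part of depth in the missing listing was not tested.

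Dpp9 encodes a cytosolic dipeptidyl peptidase that removes N-terminal dipeptides and restrains the NLRP1 inflammasome. It lies on chromosome 17 at 56186674 to 56218889, and its site (56199977 to 56200102) lay 18787 to 18912 bp from the annotated start. It was the narrowest cluster, 126 bp in all. PEG3 gave 53 fragments in wild type (2.48 FPM, 14.8-fold) and 62 in knockout (3.65 FPM, 33.2-fold), the latter the peak of rank 2 by fold in the knockout PEG3 list. H3K9me3 gave 28 fragments in wild type (1.06 FPM, 6.72-fold) and 23 in knockout (0.843 FPM, 9.76-fold). PEG3 was thus the higher antibody in both genotypes. The knockout over wild-type ratio was 1.47 (1.005 to 2.17) for PEG3, an interval that barely cleared 1, and 0.792 (0.436 to 1.42) for H3K9me3. Input was 3 fragments in wild type, and in knockout it was at the lowest value MACS2 assigns anywhere in the genome, so the knockout folds rest on that lowest value and not on a local input value.

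Dlgap2 encodes a scaffold protein of the postsynaptic density of neurons. The gene, on chromosome 8 at 14095776 to 14853426, is the longest of the 6 with 757651 bp, and its 2 sites fell within 547 bp. At site 1 (14306791 to 14307028) H3K9me3 gave 57 fragments in wild type (2.17 FPM, 10.4-fold) and 54 in knockout (1.98 FPM, 5.34-fold). The ratio of these heights was 0.913 (0.617 to 1.35). PEG3 gave 36 fragments in wild type (1.68 FPM, 6.85-fold), with its summit 9 bp from that of H3K9me3, and was not listed in knockout. There 21 fragments would have been needed to pass the weakest score listed. The scaled wild-type height was 28.6 (20.02 to 39.6), an interval whose lower end lay just below that number. The q cutoff itself may need fewer fragments, so whether the interval includes the number it needs is unknown. Site 2 (14307150 to 14307337), listed with H3K9me3 alone, gave 71 fragments in wild type (2.70 FPM) and 55 in knockout (2.02 FPM), a ratio of 0.746 (0.515 to 1.08). The input moved in opposite directions at the 2 sites. At the H3K9me3 summits it was 4.17 fragments in wild type and 9 in knockout at site 1, and 16 and 8 at site 2.

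Aadac encodes arylacetamide deacetylase, an esterase of the endoplasmic reticulum that acts on lipids and drugs and is best known from liver and intestine. The gene lies on chromosome 3 at 60031788 to 60040157, and its 2 sites lay beyond the gene's annotated end, the only ones outside a gene body. At site 1 (60045166 to 60045303) H3K9me3 gave 87 fragments in wild type (3.31 FPM) and 84 in knockout (3.08 FPM), a ratio of 0.930 (0.681 to 1.27). PEG3 gave 53 fragments in wild type (2.48 FPM, 4.34-fold), with its summit 1 bp from that of H3K9me3, and was not listed in knockout. At the knockout input of 14 fragments 27 would have been needed to pass the weakest score listed. The wild-type height scaled to knockout depth was 42.1 (31.5 to 55.04), and the number needed lay below this interval. The interval holds the counting error of the wild-type library only and not that of knockout. Whether the site differed between genotypes was not tested. Site 2 (60045651 to 60045810) gave 78 H3K9me3 fragments in wild type (2.97 FPM, 12.2-fold) and 82 in knockout (3.0 FPM, 8.05-fold). These heights hardly differed, with a ratio of 1.01 (0.734 to 1.40). Input was 5 fragments in wild type and 9 in knockout.

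Tmem267 encodes a transmembrane protein of little-known function. It lies on chromosome 13 at 119488086 to 119610459, and its 12 sites covered 7711 bp near the far end of the gene, 107639 to 115349 bp from the annotated start. H3K9me3 listed 11 peaks in wild type and 8 in knockout, and PEG3 2 and 1. Site 2 (119596646 to 119597124) was listed in all libraries. There H3K9me3 gave 89 fragments in wild type (3.38 FPM) and 60 in knockout (2.2 FPM), a ratio of 0.650 (0.460 to 0.911) whose interval lay below 1. The summits of this peak were 168 bp apart, so the heights belong to different positions of 1 broad site. PEG3 gave 43 fragments in wild type (2.01 FPM) and 32 in knockout (1.88 FPM), a ratio of 0.937 (0.574 to 1.52) whose interval included 1. The PEG3 summits were 151 bp apart, so these heights also belong to different positions.

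Tmem267 site 6 (119600228 to 119600581) gave 102 H3K9me3 fragments in wild type (3.88 FPM) and 84 in knockout (3.08 FPM), a ratio of 0.794 (0.587 to 1.07). PEG3 gave 49 fragments in wild type (2.29 FPM, 2.69-fold) and was not listed in knockout. Input at the H3K9me3 summit was 22 fragments in wild type and 30 in knockout. With 30 input fragments 45 PEG3 fragments would have been needed in knockout, against a scaled wild-type height of 38.9 (28.8 to 51.4). The number needed lay inside this interval, as at Sos2 and, close to the lower end, at Dlgap2. At the other 5 sites listed in both genotypes the H3K9me3 ratio lay between 0.780 and 1.04, with every interval including 1. At site 9 (ratio 0.899) the summits lay 175 bp apart, so those heights belong to different positions. The highest H3K9me3 peak of these genes was wild-type Tmem267 site 4 (119598942 to 119599117), with 183 fragments (6.96 FPM) over 69 input fragments and a fold of only 2.43. It reached 94.3% of the count that the authors' duplicate filter allows, close to the limit of 194 fragments.

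**Figure D2:**
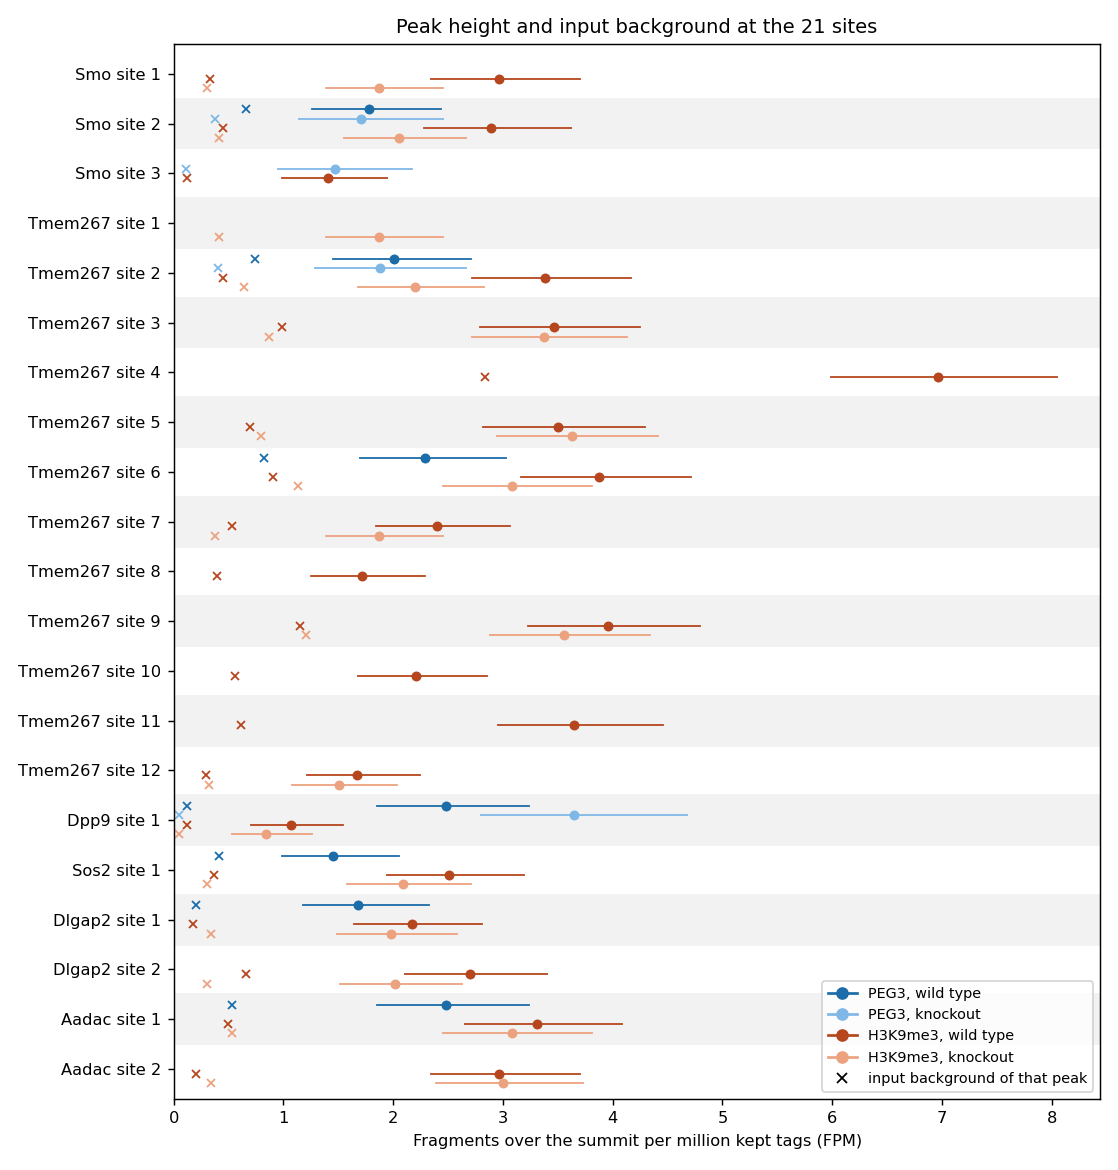
Circles are fragments over the summit in FPM with 95% counting intervals, by site (rows) and library (colours), and crosses are the input background of the same peak per 1000000 kept input tags. In Dpp9 the PEG3 circles, 2.48 and 3.65, lie to the right of the H3K9me3 circles of the same genotype, 1.06 and 0.843.

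The input was above its genome-wide level at most of these sites. At the 43 peaks outside Dpp9 the expected input ranged from 2.12 to 54.7 times the genome-wide level, with a median of 8.72. It was 5.75 to 54.7 times in Tmem267, 5.77 to 7.40 in Sos2, 3.97 to 10.1 near Aadac, 3.31 to 12.7 in Dlgap2 and 2.12 to 11.8 in Smo. In Dpp9 it was 2.22 to 2.38 times in wild type and at that lowest value in knockout. The median over the member peaks was 9.62 for wild-type PEG3 and 9.12 for wild-type H3K9me3, against 2.23 and 3.97 over the whole lists. In knockout it was 4.63 and 7.57, against 7.14 and 7.93. The part of this input level in the listing of either antibody was not tested. Where both antibodies of a genotype listed a site and their summits lay within 10 bp, the input recovered from the 2 tables differed by at most 2 fragments, as it should for 1 input library.

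Heights and widths varied between the lists. The member peaks had a median height of 2.01 FPM for wild-type PEG3 and 2.93 for wild-type H3K9me3, where the whole lists had 1.05 and 1.14. In knockout the medians were 1.80 and 2.07 FPM, against 2.35 and 2.09. Their lengths ranged from 98 to 516 bp, with medians of 144 bp (wild-type PEG3), 112.5 bp (knockout PEG3), 182 bp (wild-type H3K9me3) and 149 bp (knockout H3K9me3). The median fold of the member peaks was 3.26 for wild-type PEG3, against 5.80 over the list, and 5.33 for wild-type H3K9me3, against 5.01. By fold the wild-type PEG3 peaks ranked 13 (Dpp9), 46 (Dlgap2), 114 (Aadac) and 138 (Sos2) of 152. Those of Tmem267 site 6, Tmem267 site 2 and Smo site 2 ranked 144, 145 and 146. In knockout the median fold was 6.56 for PEG3, against 5.02 over the list, and 4.60 for H3K9me3, against 4.51. The median of the PEG3 peaks of these genes thus lay above that of the list by height and below it by fold in wild type, and the other way round in knockout.

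The comparison between genotypes could be made for H3K9me3 at 15 sites and for PEG3 at 3. With H3K9me3, 13 of the 15 sites had a lower depth-normalised height in knockout, where 71.2% of all 66 shared pairs did, and the median ratio was 0.832, against 0.900 over all shared pairs and 0.922 over the 51 pairs elsewhere. The 2 sites with an interval wholly below 1 were Smo site 1 and Tmem267 site 2, or 2 of 15, where 10.6% of all pairs had one. None of the 15 had an interval wholly above 1, where 6.06% of all pairs had one. Apart from a pair on chromosome 17 (ratio 1.37, 1.05 to 1.81), the pairs behind this share lay on chromosome Y. Their input ratios were 2.14, 2.98 and 5.64. None of the 6 genes lies on chromosome Y, whose pairs also count in the other figures given for all pairs and for pairs elsewhere. Without Tmem267 the median ratio of the other 8 sites was 0.812, with 7 lower in knockout. By fold 10 of the 15 were lower in knockout, where 51.5% of all shared pairs were, with a median ratio of 0.860 against 0.949 over all pairs. Input per 1000000 kept input tags was lower in knockout at 7 of the 15 sites, where it was at 53.0% of all pairs, with ratios from 0.425 to 1.98. The median input ratio was 1.05, against 0.924 over all pairs.

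For PEG3 the ratios were 0.961 in Smo, 0.937 in Tmem267 and 1.47 in Dpp9. Dpp9 had the only interval above 1, where 16.1% of all 62 shared PEG3 pairs had one, and 0 of the 3 had an interval below 1, where 12.9% had one. By fold all 3 were higher in knockout, with ratios of 1.56, 1.59 and 2.24. Input at the PEG3 summits was lower in knockout at all 3, with ratios of 0.574, 0.550 and 0.429. These summits lay 59 bp apart in Smo and 151 bp apart in Tmem267, and in Dpp9 the knockout input was the caller's lowest value. At the H3K9me3 summits of the same sites the input ratio was 0.918 in Smo, 1.42 in Tmem267 (168 bp apart) and 0.425 in Dpp9. Over the whole list 66.1% of the shared PEG3 pairs were higher in knockout by fold, with a median ratio of 1.17, and 83.9% had a lower input in knockout, with a median input ratio of 0.743. For Smo and Tmem267 the direction therefore depended on the measure.

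**Figure D3:**
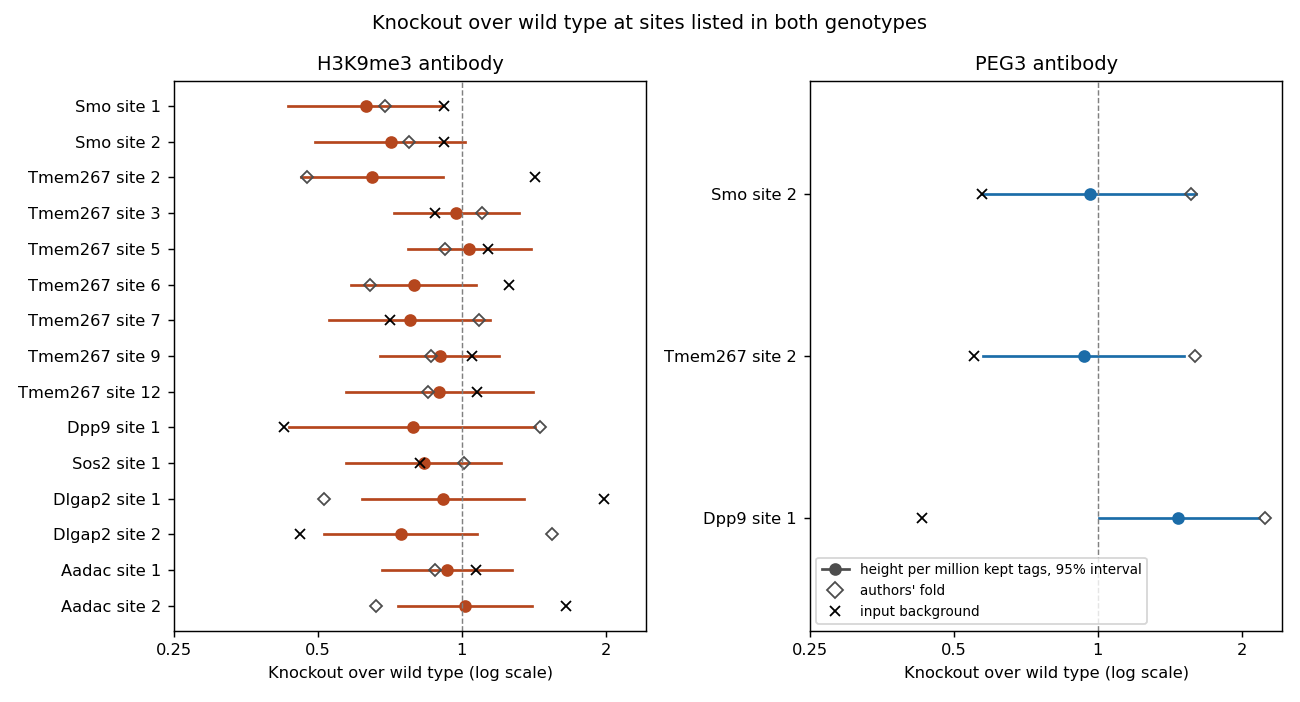
Knockout over wild-type ratios on a log scale at the sites listed in both genotypes, with the height in FPM (circles, 95% counting intervals), the authors' fold (diamonds) and the input background (crosses). In the H3K9me3 panel 13 of 15 circles lie left of 1, and in the PEG3 panel the 3 diamonds lie right of 1 and the 3 input crosses left of it.

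Within a genotype the 2 antibodies were compared at the same sites. In wild type the PEG3 over H3K9me3 ratio of heights was 0.577 (0.364 to 0.897) in Sos2, 0.590 (0.411 to 0.838) and 0.594 (0.403 to 0.864) at the 2 Tmem267 sites, and 0.614 (0.405 to 0.919) at Smo site 2. It was 0.749 (0.522 to 1.07) near Aadac and 0.776 (0.497 to 1.2) in Dlgap2. In Dpp9 it was 2.33 (1.45 to 3.82), the only member site of wild type above 1. In knockout it was 0.832 (0.512 to 1.33) in Smo, 0.857 (0.540 to 1.34) in Tmem267 and 4.33 (2.65 to 7.32) in Dpp9. Among all peaks listed with both antibodies, Dpp9 had rank 4 of 23 in wild type and rank 1 of 21 in knockout.

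Intervals below 1 were found at 4 of the 7 wild-type sites, where 56.5% of all 23 pairs had one, and at 0 of the 3 knockout sites, where 14.3% of all 21 pairs had one. Intervals above 1 were found at 1 of 7 and 1 of 3, where 17.4% and 9.52% of all pairs had one. The other 5 genes thus lay among the bulk of double-listed peaks, and Dpp9 lay in the upper group that also held peaks outside these genes. The pull-down strength of the 2 antibodies was not calibrated, so a ratio of 1 has no meaning of its own. The summits of the 2 antibodies lay 0 to 9 bp apart in Sos2, Aadac, Dpp9 and Dlgap2 and at Tmem267 site 6 in wild type, 47 bp apart at Smo site 2 and 163 bp apart at Tmem267 site 2.

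**Figure D4:**
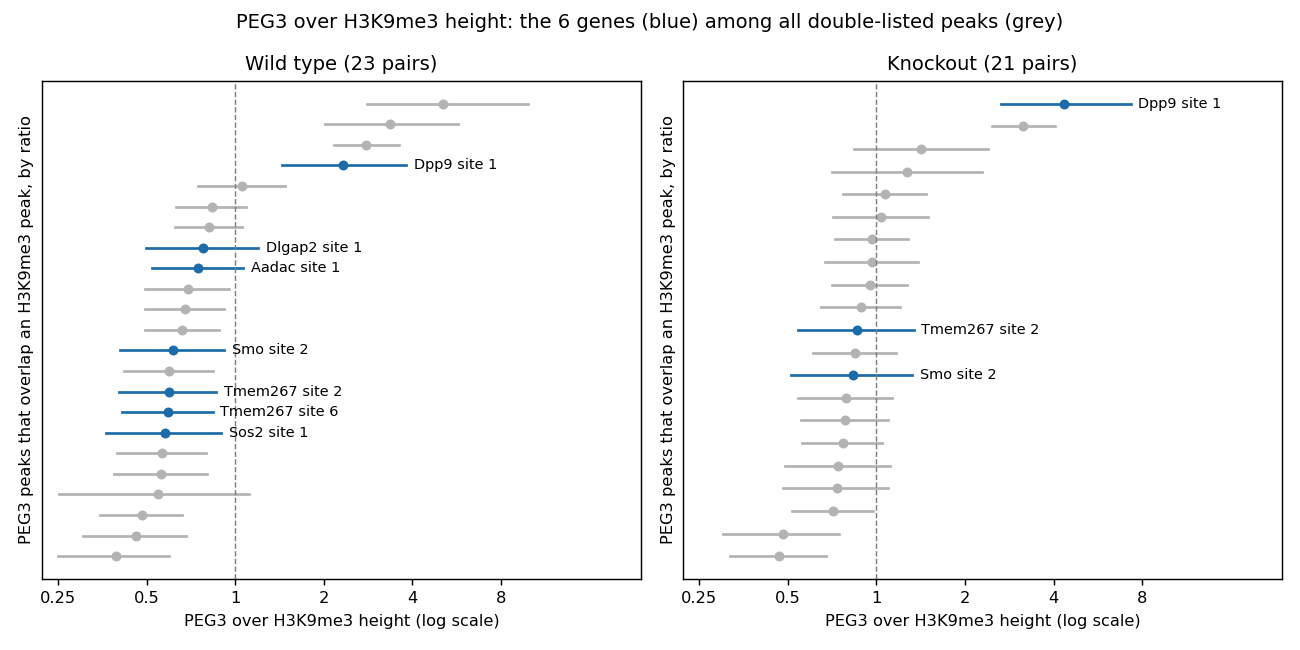
PEG3 over H3K9me3 height in FPM (log scale, 95% counting intervals) for every PEG3 peak that overlaps an H3K9me3 peak of its genotype, in order of the ratio, with the 6 genes in blue and all others in grey. Dpp9 lies at 2.33 in wild type and 4.33 in knockout, and every other blue point lies below 1.

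No site overlapped a promoter window that could be looked up. RefSeq promoter windows around a gene's start (GRCm38.p6) were available for 5 of the 6 genes, 6 windows in all, and 0 of them held a peak of any library. The annotation used here gives neither exons nor introns.

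The pathways and families of the members were looked up in fixed lists, with a window of 10 kb. Of 18 Hedgehog pathway genes, 3 had a wild-type PEG3 peak, 2 a knockout PEG3 peak and 1 an H3K9me3 peak in either genotype, where 0.644%, 0.347%, 0.247% and 0.128% of all protein-coding genes had one, in the order PEG3 wild type, PEG3 knockout, H3K9me3 wild type, H3K9me3 knockout. Smo was chosen for its peaks and counts in all of these numbers, so its part was fixed in advance. It was the only Hedgehog gene listed with H3K9me3. The counts were not tested against the shares. Besides Smo the genes with a PEG3 peak were Sufu, which encodes an inhibitor of the GLI transcription factors, and Dhh, a Hedgehog ligand gene. Sufu had a PEG3 peak of 32 fragments (9.76-fold) in wild type and 16 (7.44-fold) in knockout, and Dhh one of 24 fragments (6.84-fold) in wild type, 9139 bp outside the gene. Neither was listed with H3K9me3. The lists around Sos2 (13 genes of Ras activation), Dpp9 (11 genes with a position), Dlgap2 (12 scaffold and partner genes) and Aadac (6 genes) held no gene with a peak other than the member itself, and 0 of 12 genes of the H3K9 methylation machinery had one.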

How the data were processed

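Per the file headers, the authors ran MACS2 2.2.6 on each ChIP library with the matching input as control, a q cutoff of 0.05 and 1 tag kept per position. Bowtie2, SAMtools and mm10 are named in the submitters' processing notes, without versions. The deposited tables give the summit's pileup signal, the ratio of pileup to local input after adding 1 to each (fold enrichment), the −log10 p-value and the −log10 q-value. The p and q columns have lost their names and were identified by place and value. Recomputed Poisson −log10 p differed from the deposited one by at most 0.00335.

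Fragments are the pileup divided by the ChIP scale, and input is (pileup + 1) / fold − 1 divided by the input scale. It was whole within 0.02 at 38 of 47 peaks, and at the other 9 it came from a wider window or was the caller's lowest value. Fragments needed for listing used the lowest listed −log10 p of the library and the input found with the other antibody of the genotype. The weakest knockout PEG3 peak had a −log10 q of 1.75, stronger than the q cutoff of 0.05 demands. The cutoff itself may thus need fewer fragments than stated. Ratios have exact conditional 95% intervals. No test was made, with 1 library per group. Gene positions came from RefSeq GRCm38.p6. The members and lists were chosen with earlier results of these data known. The named genes are the 6 members, any gene from the pathway lists that had a peak within 10 kb, and the nearest neighbours. The nearest listed peak outside a 10 kb window lay 666523 bp from its gene (Dlgap2), and the farthest inside lay 5502 bp away (Aadac). No genome sequence was used here, so no peak sequence is shown. Functions were tested on simulated data. Software was SciPy 1.17.1, NumPy 2.4.6, matplotlib 3.10.9 and pandas 2.3.3 under Python 3.11.15.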

Additional observations from a re-analysis of the deposited data

How the results depend on the processing

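Peak counts stayed within 1.5 times of those reported with the gene body alone, a window of 50 kb and q thresholds of 0.01 and 0.001, and so did the PEG3 overlaps with a reciprocal overlap of 50 percent, a gap of 1000 bp and a q of 0.001. The window of 50 kb could not change the counts, as the nearest further peak lay 666523 bp from its gene. Nor could the q of 0.01, as the lowest −log10 q of the member peaks was 2.58. At a q of 0.001 all 4 libraries listed 2 sites, because the wild-type PEG3 peak of Smo site 2 had a −log10 q of 2.58. Joining peaks over gaps of up to 1000 bp left 7 sites. Without Tmem267, an alternative chosen after seeing the data, 9 wild-type and 8 knockout H3K9me3 peaks and 9 sites were left. Dividing by fragment length and subtracting the input kept all 28 ratios inside their intervals, but some crossed 1. The fragment lengths were 97 to 104 bp, so dividing by them was too small a change to move any ratio out of its interval. Subtracting the input moved the PEG3 knockout over wild-type ratio from 0.961 to 1.19 at Smo site 2 and from 0.937 to 1.16 at Tmem267 site 2. It moved the H3K9me3 ratio from 0.974 to 1.01 at Tmem267 site 3 and from 1.01 to 0.965 at Aadac site 2. Dividing by fragment length gave 1.01 for PEG3 at Smo site 2. With the fold in place of the height 7 of 28 left them. The knockout over wild-type ratio of folds was 1.59 for PEG3 at Tmem267 site 2, 2.24 for PEG3 and 1.45 for H3K9me3 in Dpp9, and 1.54 for H3K9me3 at Dlgap2 site 2, where the input ratios lay between 0.425 and 0.550. It was 0.514 for H3K9me3 at Dlgap2 site 1 and 0.661 at Aadac site 2, and the PEG3 over H3K9me3 ratio of folds was 0.376 in wild type at Tmem267 site 2, where the input ratios were 1.98, 1.65 and 1.64. The fold divides by input. At Tmem267 site 2 the summits compared lay 151 bp apart (PEG3 between genotypes) and 163 bp apart (between antibodies in wild type), so those input ratios compare different positions. No paired analysis was possible because the labels give 1 library per group and no replicate numbers. Depth limits the ratios, and heights off the lists are unknown.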
